A study of Danio rerio with 8 samples.

Results

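Cells damp growth factor signalling with genes that the signal itself switches on. The extracellular signal-regulated kinase (ERK), the last kinase of the RAS, RAF and MEK cascade, raises the transcription of dual-specificity phosphatases (dusp genes), which remove phosphate from ERK and its relatives JNK and p38, and of sprouty genes (spry), whose proteins block the cascade near the receptors. In zebrafish, spry4 and dusp6 transcripts are widely used as read-outs of fibroblast growth factor signalling.

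The genes described here are 10 feedback and ERK-linked genes chosen by symbol, dusp1, dusp2, dusp4, dusp5, dusp6, dusp22b, spry2, spry4, phlda1 and epha2a. Of these 10, 7 had a row in a count table of 21234 genes, and dusp2, dusp5 and dusp6 are not analysed here. The genes were chosen with their difference between the groups below already known, and dusp22b and phlda1 were to be set against spry4. Their values in this contrast are therefore a description, and no test of them is used as support.

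The libraries hold polyadenylated RNA of adult zebrafish heart. Collagenase and TrypLE Express were used to free the cells of the ventricle, which the labels call cardiomyocytes. The fish of both groups carried cmlc2:dsred, a red fluorescent reporter under a cardiomyocyte promoter, and all 8 libraries are labelled as taken 14 days after tamoxifen. One group of 4 is labelled control and the other 4 Hmga1a overexpression, which was induced by tamoxifen. Hmga1a binds DNA through AT-hooks, and the question was what raising it does to a heart without injury. The sources used here do not give the promoter and cell type that drive the Hmga1a transgene, how cells were selected, or how many fish went into a library. Separate fish are not stated, so a p-value here measures only how these libraries spread, which may be technical.

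Totals ran from 49598 corrected transcript counts in control 2 to 572295 in overexpression 4, and control 2 stood apart in depth, since the other 7 libraries held 238142 or more. Levels are given in CPM, which sets counts on one library size with TMM (a trimmed mean of gene ratios), and 1 count was worth 30.2 CPM in control 2 against 1.65 to 5.36 CPM in the others. The target transcript hmga1a stood at 72.9 ± 40.8 CPM in controls and 118.2 ± 25.1 CPM with overexpression (SD, n = 4). Its groups overlap, and its log2 fold change of 0.47 ± 0.30 (SE) missed the threshold of edgeR's quasi-likelihood test (adjusted p = 0.177). In the authors' deposited table, from 6 of the libraries, hmga1a is at 0.84 with an FDR of 0.0227 and is not marked as up. In control 2, which the authors' table leaves out, hmga1a had 1 count. The dsRED reporter rose from 583.9 ± 38.0 to 3050 ± 761 CPM and an eGFP entry from 128.7 ± 85.1 to 608.6 ± 60.9 CPM, without overlap. How transcripts of the transgene were counted is not known, so hmga1a checks the labels only in part.

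The 7 genes did not move as one. With Hmga1a overexpression dusp22b and phlda1 stood higher and dusp1 lower, without overlap in the values. Control 2 was too shallow to place dusp22b and phlda1. The means of spry4 and epha2a were lower and that of dusp4 higher, all 3 with overlapping groups. The gene spry2 was too sparse to tell. Of the 6 that passed the filter on low counts, 2 were called higher and 3 lower at an adjusted p under 0.05 in the edgeR fit over 2501 genes, where 59.6% of all genes tested were called, 30.4% as higher and 29.2% as lower. Nothing is read from that count, because the genes were chosen on this contrast. The median log2 fold change of all tested genes was 0.01. In bulk libraries fewer cells of a type and less RNA per cell cannot be told apart.

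**Figure D1:**
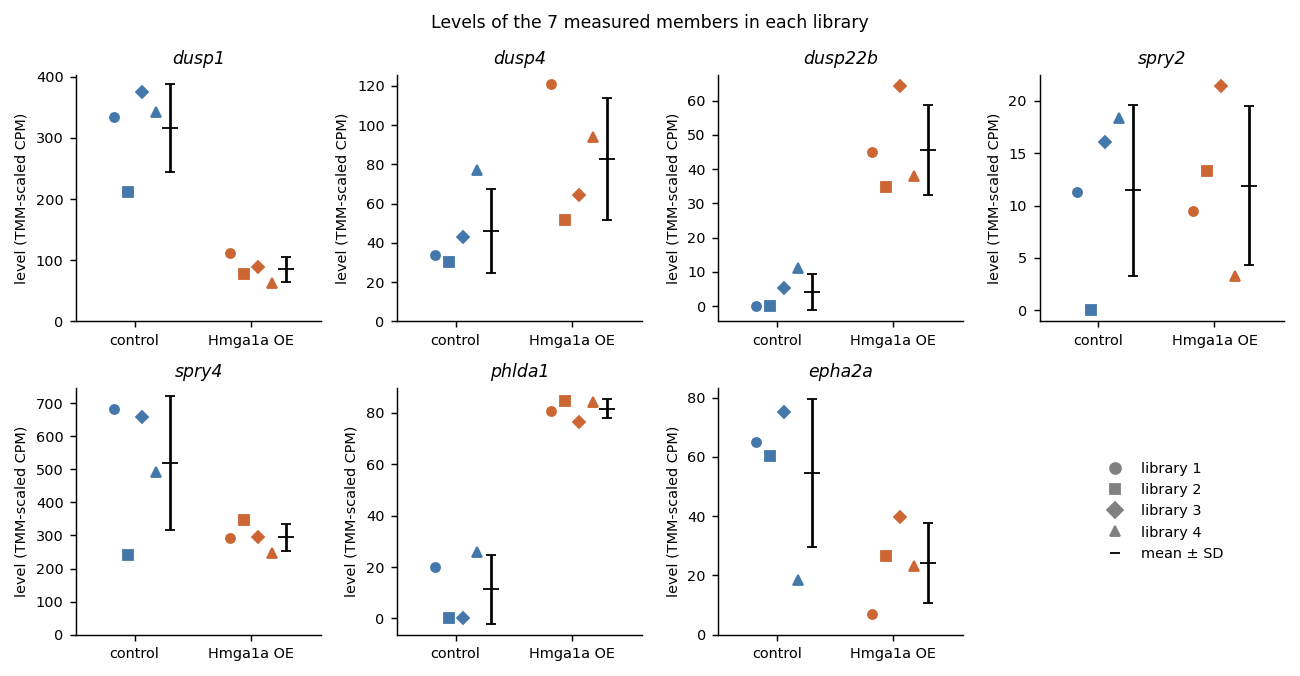
Level of each of the 7 measured genes (y axis, TMM-scaled CPM) in the 4 control and 4 Hmga1a overexpression (OE) libraries, with symbols for library number and black bars for the mean ± SD (n = 4). The overexpression libraries lie above the controls for dusp22b and phlda1, below them for dusp1, and overlap them for the other 4 genes.

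Among the phosphatases, dusp1 (LL0000009269 in the count table) encodes a nuclear enzyme that acts on p38, JNK and ERK and is itself an early stress and growth factor response gene. It stood at 334, 211, 375 and 342 CPM in control libraries 1 to 4 and at 112, 78.02, 88.8 and 62.8 CPM in overexpression 1 to 4. Every overexpression library was below every control, and the lowest control, control 2, rested on 7 counts. The means were 315.6 ± 71.8 and 85.3 ± 20.5 CPM (SD, n = 4), a 3.70-fold difference in means and a fitted log2 fold change of -1.99 ± 0.22 (SE).

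The other nuclear enzyme of the list, dusp4 (LL0000009289), acts on ERK and JNK. It was at 34.0, 30.2, 42.9 and 77.3 CPM in control libraries 1 to 4 and at 121.01, 51.5, 64.3 and 94.2 CPM in overexpression 1 to 4. The 30.2 CPM of control 2 is 1 count. Control 4 lay above overexpression 2 and 3, so the groups overlapped. The means of 46.1 ± 21.5 and 82.7 ± 31.2 CPM gave a log2 fold change of 0.73 ± 0.36, which was not past the threshold. It was past it without control 4 (1.12), without overexpression 2 (0.96), without overexpression 3 (0.87) and with library totals alone (1.11), and it was at -0.81 with contractile genes as the scale, which is 0.73 above the median of all genes under that scale.

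An atypical family member of the list is dusp22b (LL0000009280), a small phosphatase whose mammalian counterpart acts on the JNK pathway and in T cell receptor signalling. Its counts were 0, 0, 1 and 3.00 in control libraries 1 to 4 and 19.04, 21.05, 21.05 and 23.06 in overexpression 1 to 4. A count of 0 allows up to 8.49 CPM in control 1 but up to 90.5 CPM in control 2 (3 counts, counting error only), so control 2 is too shallow to show that dusp22b was low there. As levels, controls 3 and 4 stood at 5.36 and 11.04 CPM, and overexpression 1 to 4 at 45.1, 34.9, 64.3 and 38.01 CPM. Every overexpression library was above every control. The means were 4.10 ± 5.27 and 45.6 ± 13.2 CPM, and the fitted log2 fold change was 3.12 ± 0.64. Its size is imprecise, since it rests on 4 counts in the controls together and 84 in the overexpression libraries. The gene dusp22b passed the filter on low counts only through the overexpression libraries. Its fitted log2 fold change moved with the libraries left out. It was 2.35 without control 1 and 4.37 without control 4.

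Of the sprouty genes, spry4 (LL0000029325) was counted deeply enough to compare, with 506 counts in the controls together and 578 with overexpression. It stood at 682, 241, 659 and 493 CPM in control libraries 1 to 4 and at 292, 347, 294 and 248 CPM in overexpression 1 to 4. Control 2, at 8.01 counts, lay below the overexpression libraries, and the other 3 controls lay above all 4 of them. The means were 518.9 ± 203.3 and 295.2 ± 40.5 CPM, with a log2 fold change of -0.94 ± 0.19. With any 1 library left out it was -1.04 to -0.81 and past the threshold, which describes the same chosen values again. With library totals alone it was -0.55 and was no longer past the threshold.

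The second sprouty gene, spry2 (LL0000029324), had 4.001, 0, 3.00 and 5.002 counts in control libraries 1 to 4 and 4.001, 8.01, 7.01 and 2.00 in overexpression 1 to 4. The groups overlapped, at 11.4 ± 8.18 and 11.9 ± 7.58 CPM. It did not pass the filter on low counts, and in a fit with no filter its log2 fold change was -0.10 ± 0.72. At this depth a difference was not detectable, and none is shown to be absent.

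The remaining genes of the list are linked to ERK in other ways. The gene phlda1 (LL0000021721) encodes a small pleckstrin-homology protein that is induced by growth factors in mammalian cells. Its counts were 7.01, 0, 0 and 7.01 in control libraries 1 to 4 and 34.1, 51.3, 25.1 and 51.3 in overexpression 1 to 4. The zeros allow up to 90.5 CPM in control 2 and 16.1 CPM in control 3. As levels, controls 1 and 4 stood at 19.8 and 25.8 CPM, and overexpression 1 to 4 at 80.7, 84.7, 76.6 and 84.3 CPM. Each overexpression value lay above the highest control. The means were 11.4 ± 13.4 and 81.5 ± 3.78 CPM, with a log2 fold change of 2.32 ± 0.44. Like dusp22b, phlda1 passed the filter on low counts only through the overexpression libraries.

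The receptor tyrosine kinase gene epha2a (LL0000009704) encodes a receptor for ephrin-A ligands, and in mammalian cells its counterpart is raised by RAS and ERK signalling. It stood at 65.1, 60.3, 75.01 and 18.4 CPM in control libraries 1 to 4 and at 7.12, 26.6, 39.8 and 23.1 CPM in overexpression 1 to 4. The 60.3 CPM of control 2 rests on 2 counts, and the gene had 44 counts in the controls together and 46 with overexpression. Control 4 lay below 3 of the 4 overexpression libraries, so the groups overlapped. The means of 54.7 ± 25.0 and 24.2 ± 13.4 CPM gave a log2 fold change of -1.14 ± 0.46. The call did not hold without control 1 (-1.00), 2 (-1.08) or 3 (-0.92), nor without overexpression 1 (-0.81), 2 (-1.16) or 4 (-1.08).

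Over the 6 tested genes, 2 had all overexpression libraries above the controls, 1 had all below and 3 overlapped, beside 43.3% of all tested genes without overlap, 25.7% above and 17.6% below. Nothing is read from this count either. In the authors' deposited table, an edgeR comparison that leaves out control 2 and overexpression 1, the log2 fold change was 3.36 for dusp22b and 2.56 for phlda1, both marked as up. The authors' deposited table gives -1.89 for dusp1, marked as down, and -0.73 for spry4, which is not marked as down although its FDR there is 0.00362. In the authors' deposited table dusp4 is at 0.77, epha2a at -0.53 and spry2 at -0.05, none of them marked. These libraries are among the 8 used here, so the values are not independent.

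Setting each gene against spry4 within a library removes the scaling between libraries, though not the effect of depth on a count of 0. For dusp22b there were 0, 0, 0.813 and 2.24 counts per 100 spry4 counts in control libraries 1 to 4, and 15.4, 10.05, 21.9 and 15.3 in overexpression 1 to 4. For phlda1 there were 2.90, 0, 0 and 5.22 counts per 100 spry4 counts in control libraries 1 to 4, and 27.6, 24.4, 26.04 and 34.0 in overexpression 1 to 4. Neither ratio overlapped between the groups. The 0 of both genes in control 2 rests on 8 spry4 counts, too few to place either ratio there. The level of spry4 was itself lower with overexpression, at a log2 fold change of -0.94. The share of all genes without overlap relative to spry4 was not measured. With 0.5 added to each count, the mean log2 ratio of dusp22b to spry4 went from -6.16 ± 2.06 (SD, n = 4) to -2.70 ± 0.46, which is 3.46 higher. That of phlda1 to spry4 was -5.30 ± 1.81 and -1.83 ± 0.20, a difference of 3.47. The zeros make both control ratios imprecise, and the difference for dusp22b was 2.54 without control 1 and 4.15 without control 2, that for phlda1 2.59 without control 3. A dusp22b count of 0 gave -8.92 in control 1 and -4.09 in control 2, so these means depend on depth and on the 0.5 added. With 1 added to each count the differences were 2.86 for dusp22b and 2.96 for phlda1. On counts summed over each group they were 4.20 and 3.33.

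The ratios of the other members to spry4 differed among themselves. For dusp1 the ratio was 49.0, 87.5, 56.9 and 69.4 counts per 100 spry4 counts in control libraries 1 to 4 and 38.2, 22.5, 30.2 and 25.3 in overexpression 1 to 4, lower in each overexpression library than in any control. The mean log2 ratio of dusp4 to spry4 was -3.32 ± 0.88 in controls and -1.89 ± 0.69 with overexpression, and the groups overlapped. The ratios of spry2 (-4.90 ± 0.71 and -4.75 ± 0.91) and epha2a (-3.21 ± 1.17 and -3.76 ± 0.99) overlapped as well. The 87.5 of dusp1 in control 2 rests on 7 dusp1 and 8 spry4 counts. Within the list, then, dusp1 was lower even relative to spry4, while dusp22b and phlda1 were higher relative to it. Control 2 is too shallow to tell for any of these.

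**Figure D2:**
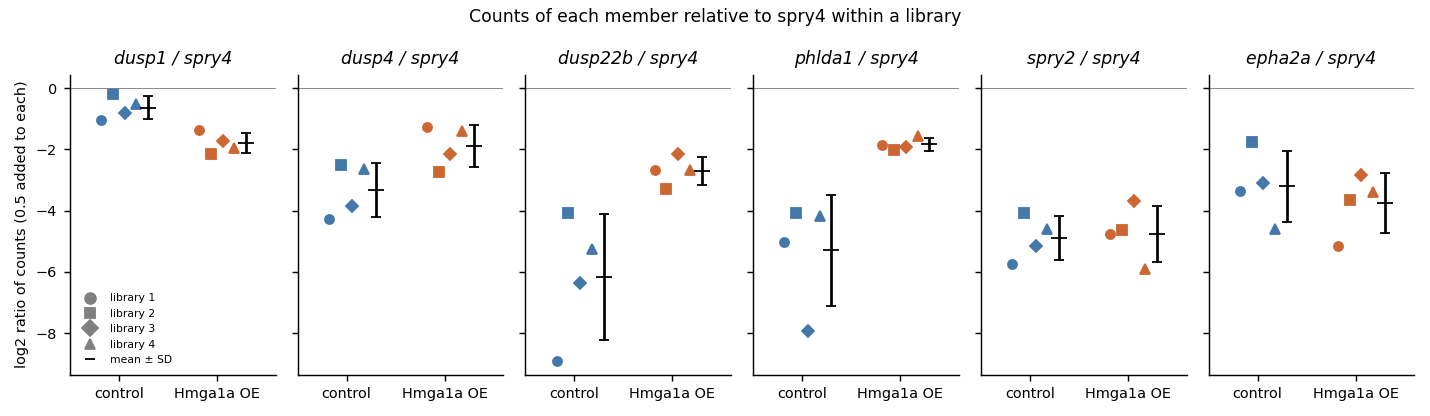
Counts of 6 genes relative to spry4 within each library (y axis, log2 ratio with 0.5 added to each count), for 4 control and 4 Hmga1a overexpression (OE) libraries, with black bars for the mean ± SD. The dusp22b and phlda1 ratios are higher in each overexpression library than in each control, the dusp1 ratio is lower, and the other 3 overlap. Control 2, with 8 spry4 counts, is too shallow to place dusp1, dusp22b and phlda1.

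Markers of several cell types differed between the groups. Of all tested genes 30.4% were called higher and 29.2% lower. The 6 cardiomyocyte markers with a row summed to 5883 to 9413 CPM in controls and to 17775 to 23624 CPM with overexpression, and all 5 that were tested rose (edgeR, median log2 fold change 1.48), the most abundant being tnnt2a (3181 ± 857 to 7392 ± 1049 CPM) and tnnc1a. The light chain gene myl7, a defining marker, had 1 count over all 8 libraries, so a gene listed at or near 0 in this table cannot be read as absent from the cells. The 8 endothelial markers with a row summed to 206 to 311 CPM in controls and 75.9 to 133.9 CPM with overexpression, with 3 of 3 tested lower, while cdh5 was listed at 0 throughout. Markers of fibroblasts and epicardium, 6 with a row and tbx18 among them at 0, summed to 596.0 to 1180 CPM and 106.8 to 139.4 CPM, carried mostly by fn1b. Leukocyte markers, 10 with a row, of which coro1a was at 0, summed to 3470 to 6666 CPM and 1482 to 2029 CPM, with 4 of 4 tested lower and cd74a the most abundant.

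Other marker lists followed no single direction. Mural cell markers, 6 with a row and notch3 at 0, summed to 453 to 1177 CPM and 1380 to 1890 CPM, the sum being carried by the contractile genes tagln and acta2, which rose. Of the same list myh11a, too sparse to test, stood at 56.0 ± 41.1 and 4.56 ± 5.10 CPM (39 and 8 counts), and pdgfrb had 12 and 1 counts. Of 5 erythrocyte markers 4 were listed at 0 (hbba1, hbba2, alas2 and slc4a1a), and the sum, nearly all cahz, was 25.5 to 48.2 CPM and 41.5 to 171.5 CPM. The 5 thrombocyte markers, itga2b and mpl at 0, summed to at most 84.6 CPM in any library. Early genes that tissue dissociation is known to induce summed to 8930 to 14314 CPM in controls and 4095 to 4661 CPM with overexpression. Among 13 of these with a row, fosab, egr1, ier2b, hsp70.1 and hsp70.2 were listed at 0. Of 8 tested, 5 were lower, hsp70l and junba among them, beside 29.2% of all tested genes. The largest part of the sum was hsp70l (7062.9 ± 1305.7 and 1648.5 ± 287.6 CPM). The tested genes atf3, btg2 and nr4a1 did not pass, at log2 fold changes of -0.13, -0.07 and -0.18. The sum moved in the direction of dusp1, and mitochondrial RNA made up 44.9% to 67.7% of counts in controls and 28.1% to 35.1% with overexpression. The part of cell makeup, dissociation and RNA quality in the differences of the members was not tested.

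Values relative to the markers were measured within each library. Per 1000 summed cardiomyocyte marker counts, dusp1 had 22.4 to 57.7 counts in controls and 3.33 to 5.51 with overexpression, and spry4 had 25.6 to 116.0 and 12.4 to 19.5. Both were lower in each overexpression library than in any control. The lowest control for both was control 2, on 7 dusp1 and 8 spry4 counts over 312 marker counts. That is too few to place spry4 above the overexpression range there. The cardiomyocyte markers themselves rose, and with contractile genes as the scale 70.9% of all tested genes fell. The share of all genes without overlap relative to these markers was not measured. On the cardiomyocyte marker scale dusp22b had at most 1.50 counts in controls and 1.96 to 2.72 with overexpression, without overlap in the values. Its 0 in control 2 rests on 312 marker counts, too few to show that dusp22b was low there. On that scale phlda1 (from 0 up to 3.49 against 3.24 to 4.76) and dusp4 (3.21 to 10.5 against 2.72 to 5.98) overlapped. On it epha2a lay at 2.49 to 11.5 and 0.352 to 1.69, without overlap, its value in control 2 resting on 2 counts.

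Per 1000 summed endothelial marker counts the picture differed. There spry4 had 1000 to 2733 counts in controls and 1852 to 3844 with overexpression, dusp1 had 875 to 1661 and 469 to 1469, and epha2a had 89.3 to 311 and 93.8 to 361, all with overlap. On the same scale dusp4 (109.1 to 375 against 525 to 1594), dusp22b (0 to 53.6 against 284 to 594) and phlda1 (0 to 125 against 630 to 1062) were higher in each overexpression library than in any control. The endothelial markers themselves fell, and the share of all genes that lay higher on this scale was not measured. These markers are few, at 8 to 110 counts per library. The 8 were in control 2, too few to place these genes there. The mean of spry4 was higher with overexpression on this scale (2079 ± 754 and 2976 ± 901), that of epha2a was 214.9 ± 93.6 and 224.7 ± 116.3, and that of dusp1 was lower (1291 ± 377 and 885 ± 419). Relative to cardiomyocyte markers the means of all 3 were lower. The dusp22b values were higher on both scales, with control 2 too shallow to tell.

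**Figure D3:**
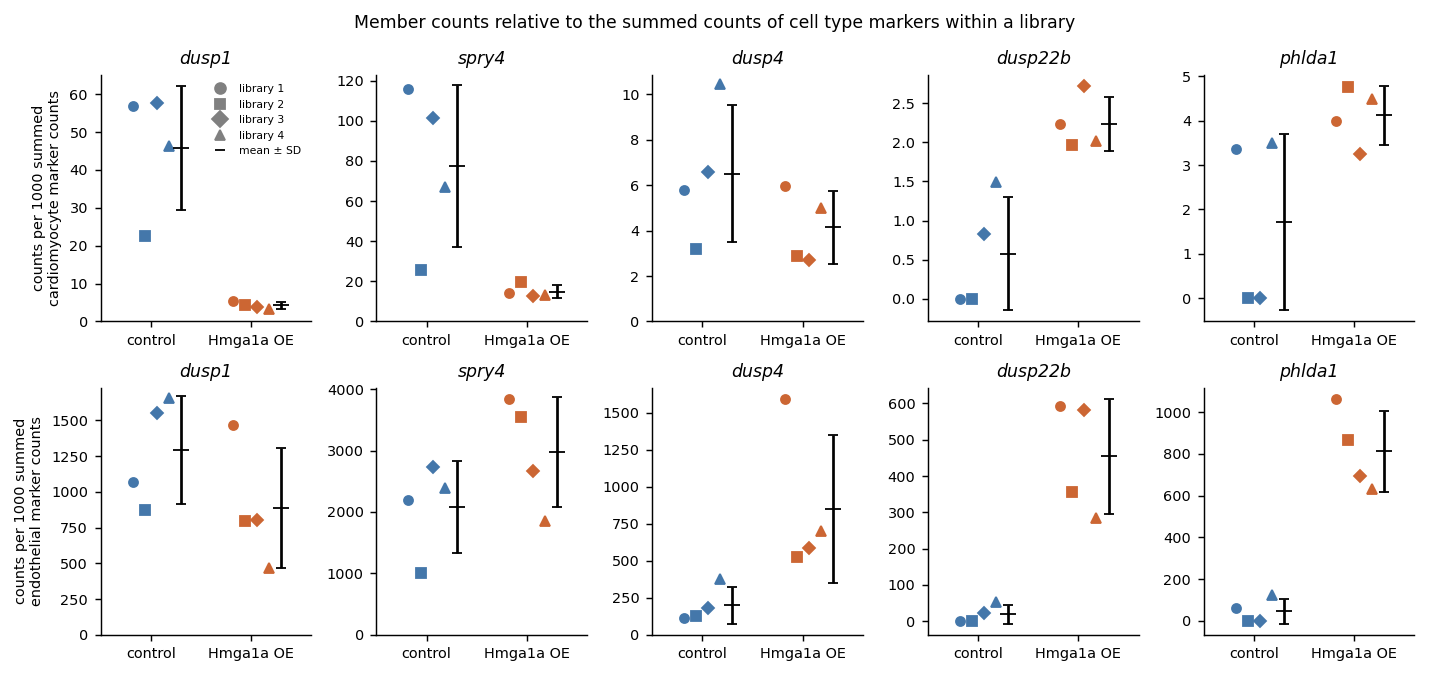
Counts of 5 genes per 1000 summed counts of cardiomyocyte markers (upper row) and endothelial markers (lower row) within each library, for 4 control and 4 Hmga1a overexpression (OE) libraries, with black bars for the mean ± SD. Both dusp1 and spry4 are lower with overexpression in the upper row and overlap in the lower row, and dusp22b is higher in both.

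The scaling sets the middle of all genes. Scaling libraries on contractile genes shifted the median of all tested genes to -1.54 on the log2 scale, and 1.34% of the genes then called were higher, beside 51.0% with TMM and 66.8% with library totals alone. Under it dusp22b was at 1.61 and past the threshold, phlda1 at 0.78 and not past it, dusp4 at -0.81, spry4 at -2.47, epha2a at -2.71 and dusp1 at -3.52. Relative to the shifted median the values were 3.15 for dusp22b, 2.32 for phlda1, 0.73 for dusp4, -0.93 for spry4, -1.17 for epha2a and -1.98 for dusp1. With TMM the same genes, in that order, lay at 3.12, 2.31, 0.72, -0.95, -1.15 and -2.00 relative to the median. With library totals alone the median of all genes was 0.38, dusp1 was at -1.58 and phlda1 at 2.66. Over these scalings the sign held for 5 of the 6 tested genes and flipped for dusp4. A change of scaling shifts all genes by nearly the same amount. Values relative to the median therefore barely change and are no separate support.

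**Figure D4:**
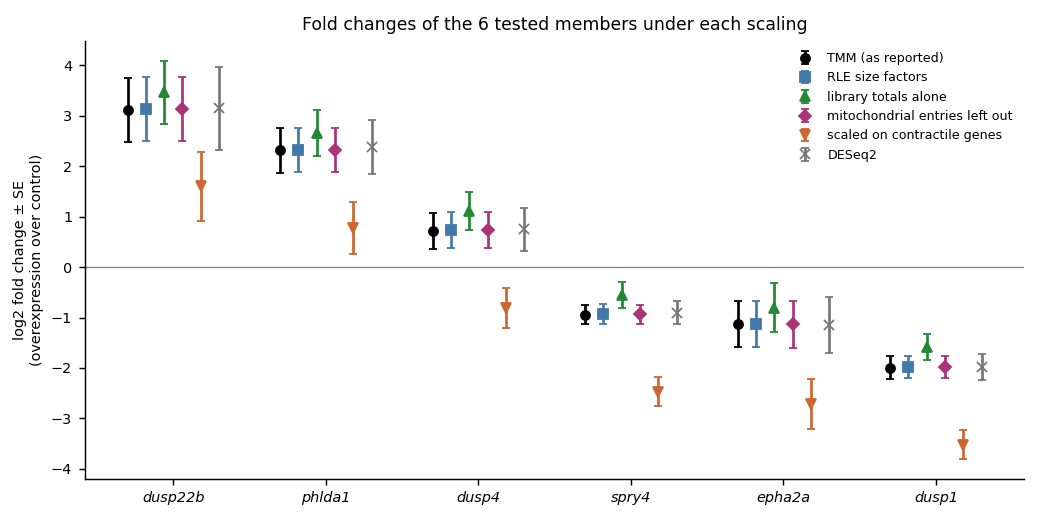
Log2 fold change (y axis, overexpression over control, bars ± SE) of the 6 tested genes under 6 ways of scaling or testing the same 8 libraries. Scaling on contractile genes lowers all 6 values, to 1.61 for dusp22b and -3.52 for dusp1, and turns dusp4 from 0.73 to -0.81, while the median of all genes moves from 0.01 to -1.54.

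The rest of the pathway was read from lists by role, 145 of 190 listed genes having a row and 114 of them at least 1 count. Only 23 were deep enough to test, of which 2 rose and 13 fell (adjusted p under 0.05 over all genes, edgeR's quasi-likelihood test) with a median log2 fold change of -0.97, beside 0.01 for all tested genes. The share that fell was 56.5%, beside 29.2% of all tested genes. With library totals alone 4 rose and 10 fell, where 19.2% of all tested genes fell. With contractile genes as the scale 0 rose and 21 fell, where 70.9% of all tested genes fell. These lists were chosen with earlier results of these data known. Among the genes that fell, ets1 and flt1 passed the filter on low counts only through the control libraries. Over the overexpression libraries they had 21 and 29 counts. Also sparse there were erbb2 and gab2, at 37 counts each, and efna1a and kdr, at 46 each. For these and the other genes that fell, passage of the filter was not checked. These calls are therefore a description.

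Of 2 tested ligand genes, hbegfa, a heparin-binding ligand of the EGF receptor family, fell from 61.6 ± 45.5 to 32.6 ± 9.91 CPM (-1.00 ± 0.40, adjusted p = 0.0332, edgeR). The call of hbegfa was lost in 9 of 16 alternatives. Among these were DESeq2 (-1.00), library totals alone (-0.62) and the fits without control 3 (-0.42) or overexpression 1 (-0.92), 3 (-0.99) or 4 (-0.75). The vascular growth factor gene vegfab was at 0.30 ± 0.38 (adjusted p = 0.510, edgeR). All 3 tested receptor tyrosine kinase genes fell, beside 29.2% of all tested genes. The vascular growth factor receptors flt1 (110.5 ± 26.6 to 15.9 ± 5.84 CPM, -2.90 ± 0.36, adjusted p = 6.9e-08, edgeR) and kdr (-1.73 ± 0.38) are themselves endothelial genes. The neuregulin co-receptor erbb2, which zebrafish cardiomyocytes use, fell from 60.4 ± 22.0 to 20.8 ± 11.01 CPM (-1.44 ± 0.43, adjusted p = 0.00458, edgeR). The call of erbb2 was lost with no filter on low counts (-1.20). The ephrin ligand efna1a, which can bind the receptor made by epha2a, was the one tested gene of its list and fell from 117.4 ± 91.8 to 23.1 ± 11.3 CPM (-2.46 ± 0.40). The means of ligand and receptor were thus both lower, each with overlapping groups, and the call of epha2a was lost in 10 of 16 alternatives. The summed endothelial markers were lower too, and a link between them was not tested.

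Inside the cascade 2 of 6 tested genes (33.3%) fell, near the 29.2% of all tested genes, and 0 rose. Nothing is read from that count. The adaptor gab2 was at -1.95 ± 0.42 and mknk2b, a kinase downstream of ERK, at -0.97 ± 0.33. The fall of mknk2b was not past the threshold without control 1 (-0.68), with library totals alone (-0.63) or with no filter on low counts (-0.74). The GTPase genes kras (0.43 ± 0.32) and rras2 (0.37 ± 0.37), the adaptor gab1 (0.57 ± 0.31) and the phosphatase ptpn11a (-0.48 ± 0.35) did not pass.

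Other negative regulators went both ways. Of 3 tested, the EGF receptor inhibitor errfi1a fell from 196.4 ± 65.8 to 71.0 ± 20.2 CPM (-1.56 ± 0.26, adjusted p = 7.5e-06, edgeR), and the RAF inhibitor pebp1 rose (1.27 ± 0.46, adjusted p = 0.0185, edgeR). The rise of pebp1 was not past the threshold without control 3 (1.05), control 4 (1.04) or overexpression 3 (1.08), nor with the replicate number as a block (1.16). With scaling on contractile genes pebp1 was at -0.31, which is 1.23 above the median of all genes there. The sprouty-related gene spred2b was at -0.56 ± 0.41 (adjusted p = 0.248, edgeR), and spry1, spred1 and spred3 were listed at 0 in all 8 libraries.

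Beyond the members, 16 other dual-specificity phosphatase genes of the list had a row and 2 were tested. The atypical family member dusp27, needed for sarcomere assembly in zebrafish skeletal muscle, rose from 48.01 ± 11.5 to 109.8 ± 21.5 CPM (1.32 ± 0.32, adjusted p = 0.000731, edgeR) with no overlap between the groups. With scaling on contractile genes it was at -0.24, which is 1.30 above the median of all genes under that scaling. The ERK phosphatase dusp7 was at -0.70 ± 0.38 (adjusted p = 0.109, edgeR). Among those too sparse to test, the JNK and p38 phosphatase dusp16 had 12, 1, 6 and 17 counts in control libraries 1 to 4 and 6, 9, 3 and 7 in overexpression 1 to 4, which is 30.2 to 62.5 CPM against 9.19 to 14.9 CPM without overlap. The 30.2 CPM is the 1 count in control 2, too few to place dusp16 there. The share without overlap among genes too sparse to test was not measured. The paralogue of dusp22b, dusp22a, had 0, 1, 0 and 2 counts in control libraries 1 to 4 and 4, 4, 1 and 3 in overexpression 1 to 4, too few to compare. How reads that fit both copies were counted is not known.

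Of 6 tested transcription factor genes that ERK signalling raises or activates, 5 fell, beside 29.2% of all tested genes. They were fosl2 (700.3 ± 250.8 to 193.5 ± 52.3 CPM, -1.92 ± 0.21, adjusted p = 1.0e-08, edgeR), ets1 (-3.25 ± 0.41), ier5 (-1.14 ± 0.21), ets2 (-1.40 ± 0.37) and mycb (-0.69 ± 0.19), while srfa was at -0.29 ± 0.41. Of these 6, ets1 is also made by endothelial and blood cells, and fosl2 and ier5 are early response genes. Of the early genes that dissociation is known to induce, 5 of 8 tested fell, junba (-1.96 ± 0.14) and junbb (-2.40 ± 0.25) among them. The others tested, atf3 (-0.13 ± 0.17), btg2 (-0.07 ± 0.16) and nr4a1 (-0.18 ± 0.17), did not pass. The mitochondrial share was lower as well. The part of dissociation and of the mitochondrial share in this group was not tested. Of the same list egr1 and fosab, which ERK induces within minutes in many cells, were listed at 0 and could not be read.

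**Figure D5:**
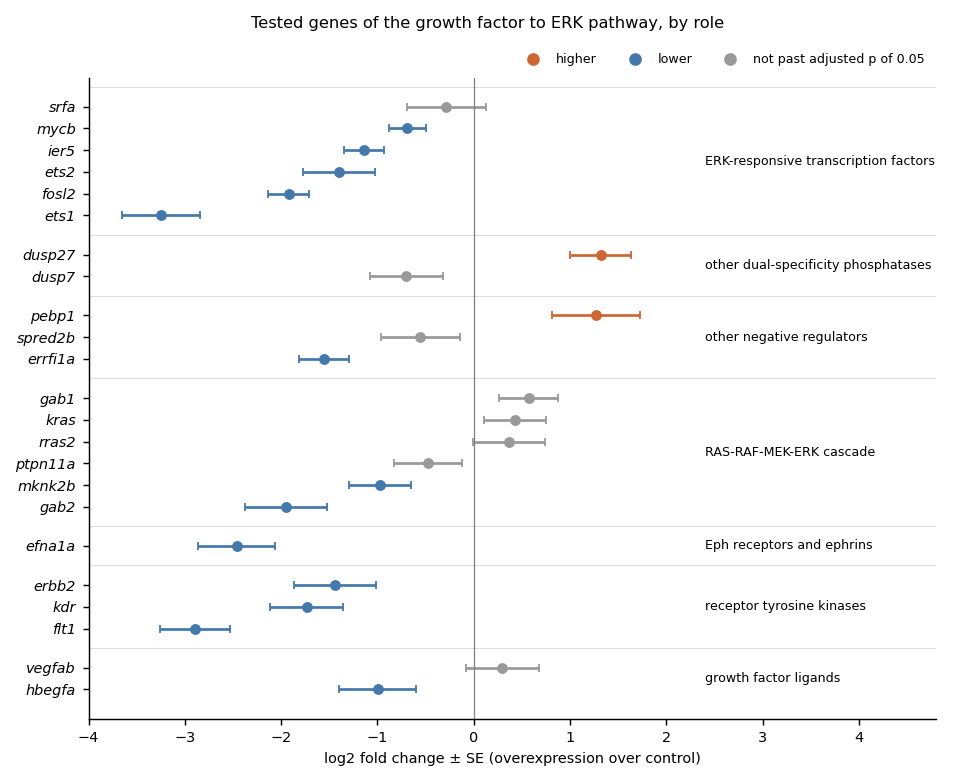
Log2 fold change (x axis, overexpression over control, bars ± SE) of the 23 tested pathway genes, grouped by role, with colour for genes past an adjusted p of 0.05. Of the 23, 13 lie to the left as lower, from ets1 at -3.25 to mycb at -0.69, and dusp27 and pebp1 lie to the right as higher.

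Genes were ranked by the root mean square difference of centred log2(CPM + 1) profiles over the 8 libraries. The candidates were 2276 named genes with a mean of at least 10 CPM. The genes nearest to spry4 were gng5 (0.167), a G protein gamma subunit, wdfy1 (0.200) and atp6ap2 (0.218), beside a median of 0.943 over all candidates. Nearest to phlda1 were mtfp1 (0.200), a mitochondrial fission protein, mrpl20 (0.479), of the mitochondrial ribosome, and arih1 (0.645), beside a median of 2.54. Nearest to dusp22b were cryl1 (0.605), ube2ka (0.622), a ubiquitin-conjugating enzyme, and rab14l (0.832), beside a median of 2.25. Over the controls, dusp22b had 0 counts in controls 1 and 2, and phlda1 in controls 2 and 3. Their nearest genes were sparse in controls too, mtfp1 at 13.7 ± 15.9 and cryl1 at 8.91 ± 9.88 CPM. The profiles also hold the contrast on which the genes were chosen. A close profile is therefore not read as a shared course, and how far zeros set these ranks was not tested.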

How the data were processed

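Estimated counts for 8 libraries were deposited by the authors, and their values have the form of unique molecular identifiers corrected for repeated use. The submitters' processing notes name danRer11 and edgeR. The sources used here do not name the aligner, counter, annotation or strand setting. Of 21301 entries, 67 spike-ins were left out of totals and tests. The authors' deposited table also gives log2 fold changes and p-values from edgeR on 6 of the libraries, per the file headers.

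Counts were rounded, genes kept by filterByExpr (minimum count 10), scaled by TMM and compared with the quasi-likelihood test (glmQLFit, robust) of edgeR 4.0.16 in R 4.3.3, without a covariate, with Benjamini-Hochberg adjustment over 2501 genes and a threshold of 0.05. The SE of a log2 fold change came from its F statistic. DESeq2 1.42.0, other scalings, filters and left-out libraries were alternatives.

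Members and lists were chosen with earlier results of these data known. Named genes were the members, of each pathway list up to 4 genes past the threshold by smallest p, the most abundant markers and the 3 nearest profiles of spry4, dusp22b and phlda1. Other genes named beside them (vegfab, dusp7, dusp16, dusp22a, mycb, srfa, spred2b, kras, rras2, gab1, ptpn11a, junbb, atf3, btg2, nr4a1, myh11a, pdgfrb and markers at 0) were picked once their values had been seen. The estimated counts behind a level, as deposited by the authors, limit its precision. Intervals and floors cover counting error only.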

Additional observations from a re-analysis of the deposited data

Results flagged for a closer look

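In 62 groups of 4 libraries checked, 3 held 1 library far from the others, and chance alone gives about 1 in 20. The transcription factor gene ets2 was at 0 CPM in control 2, beside 77.3 to 85.7 CPM in the other controls, and control 2 is the shallowest library. The kinase gene mknk2b was at 93.0 CPM in overexpression 2, beside 47.5 to 51.2 CPM in the other overexpression libraries. The summed fibroblast and epicardial markers stood at 1180 CPM in control 1, beside 596.0 to 663.7 CPM in the other controls. None of the 7 measured members had such a library.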

How the results depend on the processing

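Under the 17 alternatives, dusp1 and spry4 kept a negative sign and phlda1 a positive one in each, and dusp22b stayed positive in the 16 that tested it. The call of spry4 was lost with library totals alone (-0.55), and that of phlda1 with scaling on contractile genes (0.78). With library totals alone 964 genes were higher and 479 lower (66.8% higher, against 51.0% with TMM), 3 members were higher and 1 lower (dusp1), and 4 pathway genes were higher. With scaling on contractile genes 24 genes were higher and 1773 lower (1.34% higher), 1 member (dusp22b) and 0 pathway genes were higher, and 21 pathway genes were lower. Under that scaling dusp4 (-0.81), dusp27 (-0.24) and pebp1 (-0.31) changed sign with the median of all genes, which that scaling moved from 0.01 to -1.54, and all 3 lay above that median (by 0.73, 1.30 and 1.23). Scaling shifts all genes by nearly the same amount, so these distances are close to those with TMM whatever the scale. With no filter 25 pathway genes were lower, 114 being tested. With a minimum count of 20, where 1450 genes, 4 members and 12 pathway genes were tested, 465 genes, 1 member and 1 pathway gene were higher, and 7 pathway genes were lower.

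Leaving out 1 library at a time gave 629 to 861 genes higher and 671 to 852 lower, 2 to 3 members higher and 2 to 3 lower, and 1 to 2 pathway genes higher and 12 to 16 lower. The log2 ratio to spry4 differed by 2.54 to 4.15 for dusp22b and by 2.59 to 3.87 for phlda1. Samples with the same number did not deviate together (correlations of 0.02, -0.04, -0.02 and -0.02 over genes for numbers 1 to 4), and none of the 4 control samples correlated best with its own number, so the number is not shown to pair them. With the replicate number as a block 696 genes were higher and 652 lower, 3 members were higher (dusp4 at 0.89 among them) and 3 lower, and 1 pathway gene was higher. The call of epha2a was lost in 10 of 16 alternatives, DESeq2 and the 6 libraries of the authors' comparison among them. The contractile scale used 5 of 7 intended genes, since vmhc and cmlc1 were not used here. Of the 5, myl7 had 1 count over all libraries, so the scale rests on tnnt2a, actc1a, tnni1b and tnnc1a. These genes also carry most of the summed cardiomyocyte markers. Values on the contractile scale and relative to cardiomyocyte markers are therefore not separate support. Depth limits spry2, dusp22a, the zeros of dusp22b and phlda1 in control 2 and the few counts of other members there.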
